A study of Homo sapiens with 10 samples.

Results

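Expression and promoter contacts of 10 Hedgehog and GLI pathway genes were followed from human ESCs to NECs. The genes were taken by name, as the rows of the count table for *SHH*, *PTCH1*, *SMO*, *GLI1*, *GLI2*, *GLI3*, *HHIP*, *GAS1*, *BOC* and *CDON*, which are 10 of its 31017 genes. Their promoters were taken as the *HindIII* fragment that holds each gene start, which gave 10 of the 21833 baits that had a contact in any list. The ESCs were the H9 line and the NECs were neuroectodermal cells harvested on day 7 of differentiation of the same line, and the labels give no other treatment and no genetic change for either. RNA-seq and Promoter Capture Hi-C (PCHi-C) each had 2 biological replicates per cell type. All samples came from 1 line, so the replicates measure the spread between cultures and not between donors.

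Hedgehog ligands are secreted, lipid-modified proteins. Without ligand, the receptor PTCH1 holds the membrane protein SMO inactive. Bound ligand lifts that block, and SMO then acts through the primary cilium on the GLI transcription factors, of which GLI3 is mainly a repressor, GLI2 the main activator and GLI1 an activator that is itself a target. BOC, CDON and GAS1 are cell-surface co-receptors, and HHIP and PTCH1 bind ligand and limit its spread. In the neural tube, SHH from the notochord and floor plate sets ventral fates, and dorsal cells keep GLI repressor.

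RNA-seq libraries held 19234087 to 25356382 counts. All 10 pluripotency markers were called lower in NECs and all 10 neuroectoderm markers were called higher. Of the other markers, 6 of 10 neural crest genes were called higher and 1 lower, and 8 of the 9 tested mesendoderm genes were called lower. The summed level of the crest list was 210 and 191 in ESCs against 422 and 242 in NECs, in CPM (counts scaled to a common library size). The column headers place the ESC libraries on a single sequencing lane and the NEC libraries on a different one, so lane and cell type cannot be told apart. In bulk samples, fewer cells of a type and less RNA per cell cannot be told apart either.

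In NECs, the 3 co-receptors, the receptor *PTCH1* and the repressor *GLI3* rose, *GLI1* was lower, and the ligand gene *SHH* had 26 counts or fewer in every library. Of the 10 genes, 5 were called higher at an adjusted p under 0.05 and a log2 fold change above 1.5 (edgeR's quasi-likelihood test, Benjamini-Hochberg adjustment over 17564 genes), where 11.4% of all genes tested were. None was called lower, by edgeR or by DESeq2, against 9.68% of all genes, and 1 of the 10, *GLI1*, had an unadjusted edgeR p under 0.05 in that direction (0.000716). By the adjusted p alone, 7 of the 10 were higher against 31.5% of all genes, 1 was lower against 29.7%, and 2 did not pass. The median log2 fold change was 1.38 for the 10 genes and 0.01 for all genes tested.

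*BOC* showed the steepest change of the 10. It encodes an immunoglobulin-superfamily co-receptor for Hedgehog ligands and lies at chr3:112929850-113006303 (GRCh37, forward strand). Its counts were 97 and 103 in ESC replicates 1 and 2 and 7323 and 4942 in NEC replicates 1 and 2. Both NEC libraries were therefore far above both ESC libraries, and NEC replicate 1 was the higher of its pair. The log2 fold change was 5.88 (SE 0.31, edgeR adjusted p = 4.26e-05), which is 58.7-fold. Exons of *CFAP44* on the other strand overlap those of *BOC*, and the reads were counted without regard to strand, so the share from each cannot be told apart.

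*GAS1*, a membrane-anchored co-receptor at chr9:89559279-89562104 (reverse strand), followed the same pattern. It had 34 and 49 counts in the ESC libraries and 1468 and 991 in the NEC libraries, with no overlap between the cell types. The log2 fold change was 4.83 (SE 0.31, edgeR adjusted p = 8.07e-05), or 28.5-fold. *CDON*, the paralogue of *BOC* at chr11:125825691-125933230 (reverse strand), had more counts in ESCs than *BOC* or *GAS1*. Its 489 and 657 counts in ESCs compared with 3406 and 2900 in NECs. The log2 fold change of *CDON* was 2.40 (SE 0.16, edgeR adjusted p = 8.48e-05), or 5.27-fold. Exons of *VSIG10L2* on the opposite strand overlap those of *CDON*.

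*PTCH1* encodes the receptor that ligand inactivates and is also a GLI target (chr9:98205262-98279339, reverse strand). It had 666 and 743 counts in ESCs and 2431 and 2564 in NECs, and the replicates lay close together in each cell type. The log2 fold change of *PTCH1* was 1.74 (SE 0.11, edgeR adjusted p = 8.31e-05), or 3.34-fold. *SMO*, the signal transducer beneath PTCH1 (chr7:128828713-128853386, forward strand), had 1880 and 2622 counts in ESCs and 3834 and 4204 in NECs. It was higher in NECs in all libraries, with an edgeR log2 fold change of 0.77 (SE 0.09, adjusted p = 0.00059). That is 1.70-fold and under the fold threshold. A noncoding RNA gene on the opposite strand overlaps exons of *PTCH1*, and a different one overlaps those of *SMO*.

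The GLI genes did not move together. *GLI3* (chr7:42000548-42277469, reverse strand) had 712 and 675 counts in ESCs and 3772 and 3753 in NECs. The difference was 2.34 on the log2 scale (SE 0.17, edgeR adjusted p = 0.000114), or 5.07-fold. *GLI2* (chr2:121493199-121750229, forward strand) had 1255 and 1634 counts in ESCs and 1537 and 2069 in NECs. The counts overlapped, but per library size *GLI2* had 66.5 and 66.1 CPM in ESCs and 71.9 and 83.9 in NECs, which did not. The log2 fold change of *GLI2* was 0.23 (SE 0.10, edgeR adjusted p = 0.0918). It passed the adjusted p with library size scaling (0.0405) and without NEC replicate 1 (0.0253). *GLI1* (chr12:57853918-57866045, forward strand) had 230 and 281 counts in ESCs and 109 and 148 in NECs. *GLI1* was lower in NECs with an edgeR log2 fold change of -1.08 (SE 0.18, adjusted p = 0.00251), a difference of 2.12-fold that did not reach the fold threshold. Exons of *ARHGAP9* on the other strand overlap *GLI1*.

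The ligand gene and the ligand-binding inhibitor were the least expressed. *SHH* (chr7:155592680-155604967, reverse strand) had 7 and 26 counts in ESCs and 19 and 6 in NECs. The spread between replicates of *SHH* was as wide as the spread between cell types, and the edgeR log2 fold change was -0.41 (SE 0.71, adjusted p = 0.64). Its sign turned without ESC replicate 2 (0.57) and without NEC replicate 2 (0.26). *HHIP* (chr4:145567173-145666423, forward strand) had 16 counts in each ESC library and 27 and 43 in the NEC libraries. The log2 fold change of *HHIP* was 1.02 (SE 0.36, edgeR adjusted p = 0.0439), but the adjusted p was 0.23 in DESeq2, 0.0552 with a replicate block, 0.109 without ESC replicate 1, 0.253 without ESC replicate 2 and 0.181 without NEC replicate 2. The antisense gene *HHIP-AS1* overlaps its exons, as do a protein-coding gene without a symbol and a further noncoding RNA gene on the other strand.

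**Figure D1:**
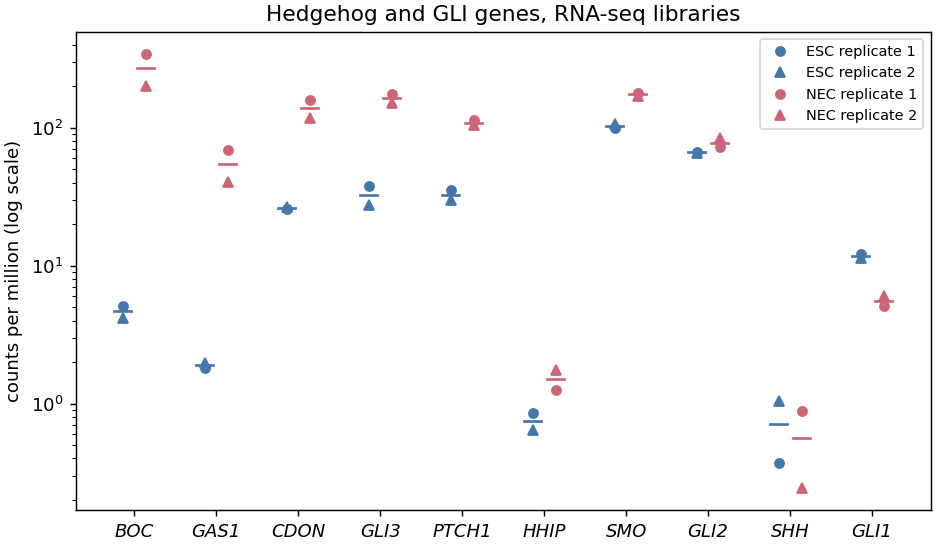
CPM of each of the 10 genes on a log axis, in order of log2 fold change; circles are replicate 1, triangles replicate 2 and horizontal bars the mean of the 2 libraries of a cell type. The ESC and NEC libraries of *BOC*, *GAS1*, *CDON*, *GLI3* and *PTCH1* lie apart, with NECs above, those of *GLI1* lie apart with ESCs above, and those of *SHH* overlap at about 1 CPM or less.

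Levels were compared between genes as CPM per kb of the exons of a gene combined. *SMO* had the highest level in both cell types, at 21.6 ± 0.96 in ESCs and 36.8 ± 1.34 in NECs (SD, n = 2). In ESCs, *GLI2* followed at 8.59 ± 0.036, and then *GLI1* at 2.58 ± 0.13, *GLI3* at 2.36 ± 0.53, *PTCH1* at 1.89 ± 0.21 and *CDON* at 1.32 ± 0.024. *GLI1* and *GLI3* did not differ beyond their spread in ESCs, and nor did *GLI3* and *PTCH1*. The co-receptors *GAS1* and *BOC* were at 0.60 ± 0.041 and 0.45 ± 0.067, and *SHH* (0.14 ± 0.092) and *HHIP* (0.063 ± 0.012) were lowest. In NECs the second place passed to *BOC* at 26.3 ± 9.75, followed by *GAS1* at 17.3 ± 6.41, *GLI3* at 11.9 ± 1.25 and *GLI2* at 10.1 ± 1.09. *BOC* and *GAS1*, and *GAS1* and *GLI3*, differed by less than the larger of their SDs. *CDON* (6.95 ± 1.49) and *PTCH1* (6.30 ± 0.40) followed, which also did not differ beyond their spread. Then came *GLI1* at 1.22 ± 0.14, *HHIP* at 0.13 ± 0.028 and *SHH* at 0.11 ± 0.087. *HHIP* and *SHH* did not differ beyond their spread in either cell type, so their order is not resolved. The CPM per kb of *GLI3* was 2.73 and 1.98 in the ESC libraries, where *GLI2* had 8.61 and 8.56. In the NEC libraries it was 12.8 and 11.02, where *GLI2* had 9.32 and 10.9. The order depends on the length used, since the longest transcript raises *CDON*, *BOC*, *GLI3* and *PTCH1* by over 1.5 times. On that scale *GLI1* (2.96) fell below *GLI3* (3.87) and *PTCH1* (3.07) in ESCs, and *BOC* (0.81) passed *GAS1* (0.60). In NECs *BOC* (47.2) passed *SMO* (43.8), *GLI3* (19.6) passed *GAS1* (17.3) and *CDON* (15.2) passed *GLI2* (10.9).

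The rest of the pathway was described by lists of genes for each step. Of 72 genes listed, 66 were tested. By edgeR's adjusted p, 45 were higher and 5 lower in NECs, against 31.5% and 29.7% of all genes. With the fold threshold, 21 were called higher and 2 lower, against 11.4% and 9.68% of all genes. These shares of all genes apply to the counts of each list below. The median log2 fold change was highest in the ligand-handling list and the dorsal patterning list, and between 0.28 and 0.78 in the lists of receptors, GLI regulators, cilium genes and ventral genes.

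Among the genes that make, release or carry ligand, 6 of the 8 tested were higher in NECs by the adjusted p, 5 of them past the fold threshold, and none was lower by edgeR's or DESeq2's call. The median log2 fold change was 2.74. The secreted carriers *SCUBE2*, *SCUBE1* and *SCUBE3* rose by log2 fold changes of 4.55 (SE 0.37), 3.75 (SE 0.23) and 3.54 (SE 0.16), with 12 and 9, 32 and 31, and 109 and 120 counts in ESCs. *HHAT*, the acyltransferase that puts palmitate on the ligand, went from 20 and 22 counts to 254 and 224. *DISP1*, which releases the lipid-modified ligand from producing cells, went from 150 and 170 to 719 and 688. *GPC3*, a glypican that competes with PTCH1 for ligand, had the highest CPM of the list and changed by a log2 fold change of 0.81. The ligand genes themselves stayed low in both cell types, with at most 20 counts of *IHH* and 16 of *DHH* in any library.

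Of 9 genes that act beside the receptor and SMO, 5 were higher and 2 lower by the adjusted p. *LRP2*, an endocytic receptor that binds SHH in the forebrain neuroepithelium, had 411 and 285 counts in ESCs and 3893 and 6324 in NECs, a log2 fold change of 3.73 (SE 0.32). *IQCE*, which holds the EVC complex in the cilium, was called higher (log2 fold change 1.74). *ARRB1*, a beta-arrestin, was called lower, from 1051 and 2235 counts to 188 and 180, a log2 fold change of -3.19 (SE 0.25).

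Of 15 genes that modify GLI proteins, 10 were higher and 1 lower by the adjusted p, but 1 passed the fold threshold. That gene was *GPR161*, a ciliary receptor that keeps protein kinase A active and GLI repressed, with a log2 fold change of 1.62 (SE 0.12). *CSNK1A1*, a kinase that phosphorylates GLI proteins and the most abundant of the list, was lower by a log2 fold change of -0.24 (adjusted p = 0.0451, edgeR). Of 15 primary cilium genes, 10 were higher by the adjusted p, none was lower, and none was called in either direction by edgeR or DESeq2. Their median log2 fold change was 0.70. *DYNC2H1*, the motor of retrograde transport in the cilium and the most abundant of these, had a log2 fold change of 0.02 (SE 0.10).

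Dorsal and intermediate neural tube genes rose together. All 10 dorsal and intermediate genes were called higher, with a median log2 fold change of 6.48, or 5.58 when genes at the floor of 3 counts per ESC library were set to their lower bound (4.25 with NEC replicate 2 alone in the bounds). *WNT1*, a roof plate ligand, had no counts in ESCs and 171 and 32 in NECs, at least 33.2-fold higher by the mean of the NEC libraries and at least 9.26-fold by NEC replicate 2 alone. *DBX2*, a factor of intermediate progenitors, had none in ESCs and 55 and 64 in NECs, at least 18.4-fold higher. The dorsal factors *PAX7* (0 and 1 counts in ESCs, 272 and 53 in NECs), *PAX3* (5 and 8, then 1416 and 441) and *LMX1A* (2 and 1, then 238 and 64) were also called. *PAX6*, the most abundant of the list, went from 31 and 28 counts to 1848 and 1304. It is also among the neuroectoderm markers, so those 2 results share a gene. The summed CPM of the list was 4.24 and 3.52 in ESCs and 285 and 123 in NEC replicates 1 and 2. NEC replicate 1 also had the higher *BOC*, *GAS1* and neural crest sum, and *PAX3* and *MSX1* stand in both the dorsal and the crest list. The part of the crest genes in these results was not tested.

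Of 13 ventral genes and common targets, 9 were tested. By the adjusted p, 4 were higher and 2 lower, against 31.5% and 29.7% of all genes, and the median log2 fold change was 0.28. *BCL2*, a survival gene, rose from 46 and 53 counts to 659 and 819 (log2 fold change 3.81, SE 0.16). *NKX6-2* had 2 counts in each ESC library and 18 and 12 in NECs, and lost its call in DESeq2 (adjusted p = 0.0597) and, in edgeR, without ESC replicate 2 (0.0763). *FOXA2*, a factor of the floor plate and also of endoderm, was lower in NECs, with 97 and 331 counts against 57 and 40, and its log2 fold change of -2.13 became -1.27 without ESC replicate 2. *FOXA2* is in the mesendoderm list as well, whose summed CPM was 92.7 and 221 in ESCs and 8.38 and 8.47 in NECs. The most abundant of the list, *SFRP1*, a secreted WNT inhibitor, had 6852 and 5521 counts in ESCs and 10109 and 21726 in NECs. *NKX2-1*, *NKX2-2* and *FOXF1* had 2 counts or fewer in every library. *NKX6-1* and *OLIG2*, factors of ventral progenitors, had log2 fold changes of 0.24 and 0.28 that did not pass the adjusted p (0.271 and 0.418, edgeR).

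**Figure D2:**
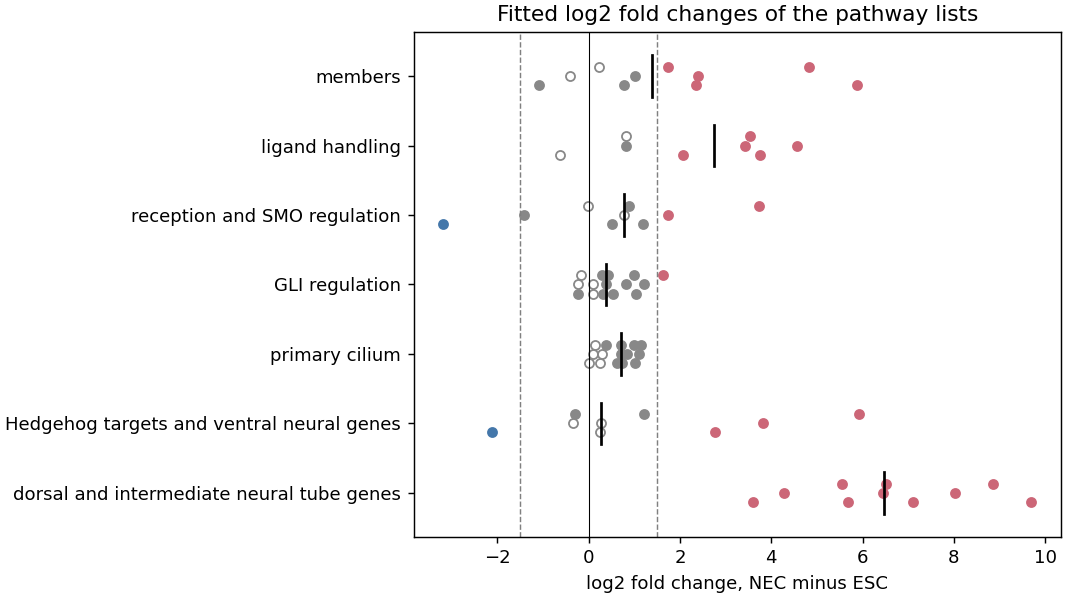
Fitted log2 fold change, NEC minus ESC, of each tested gene in the 10 genes ("members") and in 6 lists of other pathway and patterning genes. Red points were called higher and blue points called lower, filled grey points passed the adjusted p alone, open points did not, black bars are list medians and dashed lines mark the fold threshold of 1.5; the dorsal list lies wholly to the right and the cilium list wholly between the dashed lines.

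PCHi-C addressed which distal fragments contact these promoters. It captures ligation products of baited promoter fragments, and CHiCAGO scores each pair of bait and other end, called a promoter-interacting region (PIR), against a distance-dependent background. The deposited lists stop at a score of 12 and give no read numbers, so the depth behind a score is unknown, an unlisted pair may lie just under the threshold, and with 2 lists per cell type no test was made. No bait of the 10 held the start of another protein-coding gene. The ends of all 265 fragments paired at these baits, the baits included, were *HindIII* sites of the GRCh37 assembly.

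The sequence around the start site is shown for the 4 genes called higher that had an entry in the RefSeq promoter table. These 4 genes have 11 promoters there, and for each the one nearest to the gene start of the count table is shown. The table runs from 250 bases before to 50 after each start in GRCh38.p14, and 8 of the 10 genes were in it with 16 promoters. *GLI1* and *GLI3* had no entry. Capitals mark the GC box GGGCGG or its reverse complement CCGCCC and the *HindIII* site AAGCTT. The 4 sequences lie at chr3:113211307-113211606 (forward strand), chr9:86947457-86947756, chr11:126063252-126063551 and chr9:95516922-95517221 (all reverse strand).
BOC: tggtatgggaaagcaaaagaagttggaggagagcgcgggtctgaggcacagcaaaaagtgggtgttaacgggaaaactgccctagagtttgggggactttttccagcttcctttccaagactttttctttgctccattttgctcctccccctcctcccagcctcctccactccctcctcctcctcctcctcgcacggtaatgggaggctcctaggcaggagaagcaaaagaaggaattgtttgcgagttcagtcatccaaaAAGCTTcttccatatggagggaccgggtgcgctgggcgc
GAS1: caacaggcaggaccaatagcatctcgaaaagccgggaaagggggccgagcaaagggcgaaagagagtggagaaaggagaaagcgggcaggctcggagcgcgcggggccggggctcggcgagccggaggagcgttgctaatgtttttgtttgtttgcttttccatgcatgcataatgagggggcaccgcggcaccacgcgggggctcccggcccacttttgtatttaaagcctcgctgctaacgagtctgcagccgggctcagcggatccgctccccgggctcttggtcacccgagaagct
CDON: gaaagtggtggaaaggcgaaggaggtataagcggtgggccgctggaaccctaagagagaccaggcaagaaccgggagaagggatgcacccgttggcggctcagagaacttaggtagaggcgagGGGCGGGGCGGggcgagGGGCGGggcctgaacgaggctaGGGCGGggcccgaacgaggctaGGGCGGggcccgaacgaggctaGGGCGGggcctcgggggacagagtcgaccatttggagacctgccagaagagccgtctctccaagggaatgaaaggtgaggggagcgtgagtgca
PTCH1: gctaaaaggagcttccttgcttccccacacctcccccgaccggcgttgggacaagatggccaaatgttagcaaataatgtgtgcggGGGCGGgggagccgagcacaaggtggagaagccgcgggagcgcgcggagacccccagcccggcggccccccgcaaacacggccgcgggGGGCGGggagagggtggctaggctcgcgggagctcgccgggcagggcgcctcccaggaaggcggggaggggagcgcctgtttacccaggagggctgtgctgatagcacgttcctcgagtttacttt
The *CDON* sequence holds 6 GC boxes, overlapping ones counted, the *PTCH1* sequence 2, and the *BOC* and *GAS1* sequences none. The promoters not shown held 1 (*BOC*) and 0 or 1 (*CDON* and *PTCH1*), and *GAS1* has no other. A GC box was found in 9 of the 16 promoters, 56.2%, and in 45.0% of all 35116 in the table. The *HindIII* site in the *BOC* sequence is the edge of its bait, chr3:112925012-112930415 in GRCh37, so that promoter was only partly in the captured fragment. The *GAS1* (chr9:89558848-89563289), *CDON* (chr11:125931954-125934808) and *PTCH1* (chr9:98276633-98283241) sequences were wholly inside theirs. The promoters of *BOC* and *PTCH1* that are not shown lay outside these baits, as did a further promoter of *CDON*. The PIRs of these baits therefore do not cover those starts.

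Summed over the 10 baits, the ESC replicates listed 63 and 45 PIRs, and the NEC replicates 114 and 75. Both NEC totals were above both ESC totals, although NEC replicate 2 had the shortest list over all baits, 81168 calls against 86429 to 100305. In the authors' merged lists, which combine the replicates of a cell type, the 10 baits had 72 PIRs in ESCs and 132 in NECs, where the whole lists held 99302 and 99181 pairs. The median per bait was 6.0 and 8.5 in the merged lists, against 3.0 in each for all baits. All PIRs in the merged lists were on the chromosome of the gene, at a median distance between fragment centres of 239 kb in ESCs and 244 kb in NECs (196 and 217 kb for all baits). No fragment was a PIR of 2 of the 10 baits.

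Both NEC replicates exceeded both ESC replicates in PIR number at 4 of the 10 baits, *PTCH1*, *GLI3*, *GAS1* and *BOC*, and the reverse held at none. Over all 21768 baits in the replicate lists, 13.2% had both NEC counts above both ESC counts and 12.9% the reverse. The 4 baits belong to 4 of the 5 genes called higher in expression, and over the baits of all genes called higher the share was 19.8% (313 of 1583). At the fifth, *CDON*, the counts were 8 and 8 in ESCs and 6 and 8 in NECs.

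A NEC-only pair was called in both NEC replicates and in neither ESC replicate, an ESC-only pair was the reverse, and a retained pair was called in all 4. Of the 212 distinct pairs of the 10 baits in the replicate lists, 17 were NEC-only, 8.02% where all baits had 2.46%. ESC-only pairs numbered 4, 1.89% against 2.56%, and retained pairs numbered 6, 2.83% against 2.85%. With a score of at least 15 these became 4, 0 and 1 of 48 pairs (8.33%, 0% and 2.08%), where all baits had 3.61%, 3.06% and 3.95%. With PIRs within 10 kb taken as shared they became 28, 5 and 33 of 212 (13.2%, 2.36% and 15.6%), where all baits had 4.24%, 4.21% and 12.6%. The NEC-only pairs belonged to *GAS1* (6), *GLI2* (3), *GLI3* (3), *BOC* (2), *SHH*, *PTCH1* and *CDON* (1 each).

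**Figure D3:**
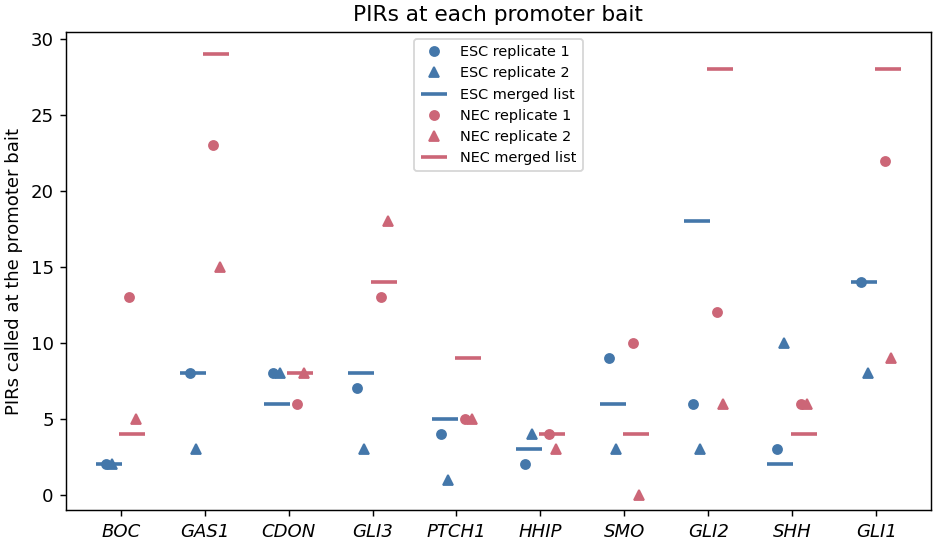
Number of PIRs called at the promoter bait of each gene, in order of log2 fold change of expression; circles are replicate 1, triangles replicate 2 and horizontal bars the authors' merged list. Both NEC replicates lie above both ESC replicates for *BOC*, *GAS1*, *GLI3* and *PTCH1*, and the *GAS1* bait has 8 PIRs in the merged ESC list and 29 in the merged NEC list.

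The *BOC* bait had few contacts and one strong one. Each ESC replicate listed 2 PIRs for it, and the NEC replicates listed 13 and 5. The retained PIR at chr3:112809412-112816861, 115 kb upstream, scored 16.10 and 16.40 in ESCs, 31.62 and 22.47 in NECs, and 17.41 and 36.72 in the merged lists. This fragment is itself a bait, overlaps no protein-coding gene and was called from 5 other baits. The NEC-only PIRs of *BOC* lay on both sides of it, at chr3:112803549-112806556 (14.20 and 12.17) and chr3:112854199-112865685 (13.35 and 13.20). All 4 merged NEC PIRs of *BOC* were upstream and overlapped no protein-coding gene.

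*GAS1* gained the most. Its bait had 8 and 3 PIRs in ESC replicates 1 and 2, against 23 and 15 in those of NECs. In the merged NEC list none of the 29 PIRs overlapped a protein-coding gene, and 25 lay downstream of *GAS1*. Of the 8 merged ESC PIRs, 4 were among these 29. The highest score, 32.24, was at chr9:89251578-89252864, 309 kb downstream, a fragment that scored 12.39 in ESC replicate 1, was not called in ESC replicate 2, and scored 23.99 and 19.85 in the NEC replicates. The adjacent fragment chr9:89252865-89256211 was NEC-only (16.84 and 17.54, merged 22.43). Further NEC-only PIRs lay 460 kb downstream (chr9:89100102-89102136, 16.57 and 12.74) and 329 kb downstream (chr9:89230080-89233475, 13.34 and 15.95). A pair of neighbouring fragments upstream was also NEC-only, chr9:89935631-89941137 (13.19 and 12.21) and chr9:89941138-89947176 (16.62 and 14.35), although the latter was in the merged ESC list at 12.38. The ESC-only PIR at chr9:89031354-89034941, 528 kb downstream, scored 14.75 and 13.27.

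The *GLI3* bait (chr7:42274363-42279880) listed 7 and 3 PIRs for ESCs, against 13 and 18 for NECs, and its merged lists shared 2 of 20 PIRs. In the merged NEC list, 10 of 14 PIRs lay upstream of the gene and 10 overlapped no protein-coding gene. The NEC-only PIRs were 383 kb (chr7:42657276-42662456, scores 14.24 and 12.04), 430 kb (chr7:42702599-42711501, 12.80 and 13.21) and 594 kb upstream (chr7:42869607-42871967, 14.50 and 13.28). The top ESC PIR (chr7:42721521-42727635, merged 15.75 in ESCs and 18.13 in NECs) and the top NEC PIR (chr7:42727636-42732102, merged 19.04 in NECs) were adjacent fragments. The latter was called in ESC replicate 2 (12.06), so the separation of the pair by cell type was not complete.

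*GLI2* had NEC-only contacts without a called change in expression. Its bait (chr2:121490315-121496462) listed 6 and 3 PIRs for ESCs, against 12 and 6 for NECs, so the groups touch at 6. Contacts ran into the gene, and 11 of 18 merged ESC PIRs and 21 of 28 merged NEC PIRs lay in *GLI2* itself, with 13 fragments in both lists. The NEC-only PIRs were 3 intronic fragments at 159 kb (chr2:121649647-121655940, 12.76 and 19.49), 201 kb (chr2:121689651-121698921, 12.56 and 14.29) and 226 kb (chr2:121713940-121724239, 14.43 and 13.51) downstream of the start. The last 2 were also in the merged ESC list, at 13.51 and 12.97. The retained PIR beyond the 3' end, chr2:121827246-121840148, scored 14.93 and 18.62 in ESCs, against 30.83 and 25.88 in NECs.

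**Figure D4:**
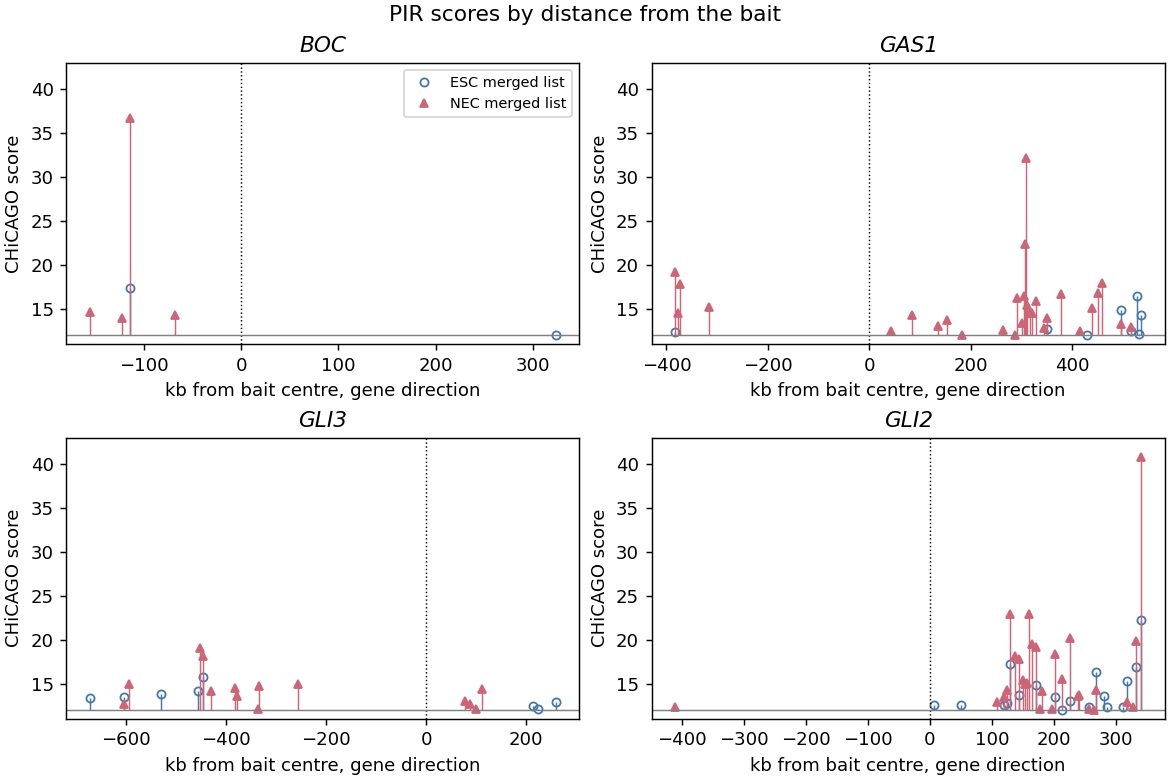
CHiCAGO score of each merged-list PIR against its distance in kb from the bait centre, negative upstream and positive downstream of the gene, for *BOC*, *GAS1*, *GLI3* and *GLI2*; open circles are the ESC list and filled triangles the NEC list, and the grey line is the threshold of 12. The *BOC* contact 115 kb upstream and the *GLI2* contact 340 kb downstream are called in both cell types with higher NEC scores, and the *GAS1* contact at 309 kb is in the NEC list alone.

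All merged contacts of *PTCH1* were upstream. Its bait listed 4 and 1 PIRs for ESCs, and 5 in each NEC replicate. The retained PIR at chr9:98979498-98981936, 701 kb away, scored 13.12 and 15.98 in ESCs and 17.01 and 12.83 in NECs, so its replicate scores overlapped. The fragment adjoining it, chr9:98973010-98979497, was NEC-only (13.96 and 15.28).

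Because *PTCH1* is a textbook GLI target, the GLI-binding letters GACCACCCA were searched on both strands. They were found in 1 of the 16 promoters of the 10 genes and in 83 of all 35116 (0.236%). The promoter was an internal one of *PTCH1* at chr9:95509217-95509516 (GRCh38.p14, reverse strand), which lies at chr9:98271499-98271798 in GRCh37 and outside the bait. In GRCh37 the *PTCH1* bait was the only one of the 10 with a match, at chr9:98279114-98279122, and 6.2% of all baits held one. The NEC-only *PTCH1* PIR held another, shown with 26 bases on each side (chr9:98977053-98977113, GRCh37, forward strand). Capitals mark the match, and its reverse complement in the promoter.
PTCH1 promoter: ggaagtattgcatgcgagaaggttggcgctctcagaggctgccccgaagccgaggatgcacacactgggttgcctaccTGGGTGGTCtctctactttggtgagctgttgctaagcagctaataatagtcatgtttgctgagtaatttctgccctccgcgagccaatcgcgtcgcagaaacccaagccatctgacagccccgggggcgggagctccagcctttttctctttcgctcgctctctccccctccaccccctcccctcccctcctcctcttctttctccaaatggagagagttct
PTCH1 NEC-only PIR: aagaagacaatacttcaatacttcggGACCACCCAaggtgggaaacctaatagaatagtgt
Over all 166 merged PIRs of the 10 genes, 12 held a match (7.2%, against 4.4% of all PIR fragments), 4 of them at *PTCH1*, 3 each at *GLI1* and *GAS1* and 1 each at *GLI2* and *GLI3*. A match describes letters and does not show binding.

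*SHH* had contacts in both cell types despite its low counts. Its bait (chr7:155601653-155605224) listed 3 and 10 PIRs for ESCs, and 6 in each NEC replicate, which lay between the ESC values. The retained PIR at chr7:156427248-156442595, 831.5 kb upstream, is the bait of *RNF32* and scored 13.85 and 12 in ESCs and 21.50 and 16.99 in NECs. The ESC-only PIR at chr7:155247684-155262051 holds the start of *EN2*, a homeobox gene of the midbrain-hindbrain region, and scored 12.17 and 15.04. The NEC-only PIR at chr7:156264719-156269460 overlapped no protein-coding gene, lay 664 kb upstream, and scored 18.25 and 13.56.

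*GLI1* contacts mostly fell on exons of other genes, at 21 of 28 merged NEC PIRs. Its bait (chr12:57847046-57863106) listed 14 and 8 PIRs for ESCs, against 22 and 9 for NECs, which overlap, and none was NEC-only or ESC-only. All 28 of its merged NEC PIRs were called from other baits as well. A retained PIR in *R3HDM2*, chr12:57683457-57687504, scored 15.03 and 13.95 in ESCs and 14.10 and 14.11 in NECs, which overlap. Another in the same gene, chr12:57698637-57704975, scored 15.60 and 14.13 in ESCs and 16.96 and 20.34 in NECs. The top ESC PIR was 13.1 kb from the bait centre, chr12:57867893-57868428, at merged scores of 21.74 in ESCs and 19.48 in NECs. It was called in replicate 1 alone of each cell type (17.12 in ESCs and 15.98 in NECs).

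*SMO* contacted other promoters for the most part, and all 6 merged ESC PIRs and all 4 merged NEC PIRs were baits. Its bait (chr7:128820431-128837130) listed 9 and 3 PIRs for ESCs, 10 for NEC replicate 1 and 0 for NEC replicate 2. The contact with the *AHCYL2* start at the end of the gene (chr7:128853214-128866189, 30.9 kb) scored 19.54, 13.99 and 20.76 in the 3 lists that held it. The contact with the *UBE2H* start (chr7:129591753-129595822, 765 kb) was ESC-only, at 13.64 and 14.77.

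PIR numbers of *CDON* and *HHIP* overlapped between the cell types. The *CDON* bait had an NEC-only PIR 120 kb upstream (chr11:126048208-126057531, 12.13 and 15.39) and an ESC-only PIR 152 kb upstream in *FAM118B* (chr11:126082755-126087844, 12.18 and 12.45). Its top ESC PIR was in *DDX25* (chr11:125792955-125797851, merged 16.73 in ESCs and 12.85 in NECs). The *HHIP* bait (chr4:145559828-145574641) listed 2 and 4 PIRs for ESCs, against 4 and 3 for NECs, with none in any of the 3 classes. The top ESC PIR of *HHIP* was chr4:145099536-145102012 (merged 13.81, and 13.70 in NECs). It was called in replicate 2 alone of each cell type (14.64 in ESCs and 14.46 in NECs). The top NEC PIR was chr4:146015816-146020399 at the starts of *ABCE1* and *ANAPC10* (merged 14.30, and 12.92 in ESCs).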

How the data were processed

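The 10 genes and the gene lists were chosen with earlier results of these data known, and the named list genes and PIRs follow a fixed rule: in each list the called genes, up to 5 by absolute log2 fold change, and the gene with the highest CPM; at each bait the top merged PIR of each cell type and up to 6 retained, NEC-only or ESC-only PIRs by score. Genes named outside it (*IHH*, *DHH*, *NKX2-1*, *NKX2-2*, *FOXF1*, *NKX6-1*, *OLIG2*) were chosen after their values were seen. The values of 1 listed gene that the rule names are not reported here. For RNA-seq, the authors aligned reads to GRCh37 with TopHat (TopHat2 2.0.8b and Bowtie 1.0.0 in the submitters' processing notes) and deposited raw counts on the Ensembl gene set, counted without regard to strand. Genes passing filterByExpr (minimum count 10; 17564 of 31017) were normalized by TMM and tested with edgeR 4.0.16 (R 4.3.3, prior count 0.125). CPM used TMM-scaled library sizes. DESeq2 1.42.0 was an alternative. SDs and p-values rest on 2 libraries per cell type, of 19234087 to 25356382 counts. The PCHi-C score lists were deposited by the authors, who removed duplicates and ran CHiCAGO for each replicate and both combined; each bait line was read once. Fragments were annotated with GENCODE v44 lifted to GRCh37. Scripts ran in Python 3.11.15 and were tested on simulated data. The Hi-C samples were not analysed here.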

Additional observations from a re-analysis of the deposited data

How the results depend on the processing

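The 5 genes called higher and the 0 called lower were the same in number under all 10 alternatives of normalization, test, filter, replicate block and left-out library. Genes higher by the adjusted p alone numbered 7, and 6 to 8 over the alternatives. With the replicate block 5 were called higher and 6 passed the adjusted p alone, *HHIP* being the one lost (adjusted p = 0.0552, edgeR). The deviations of ESC and NEC libraries with the same replicate number had a correlation of 0.074. With 2 libraries per cell type this is a single value, which cannot tell whether the libraries were paired. The replicate block changed no other call of the 10 genes. *SHH* reversed without ESC replicate 2 (log2 fold change 0.57) and without NEC replicate 2 (0.26), and ranged from -1.58 to 0.57 with a library left out. List genes called lower numbered 2 and ranged from 1 to 3 with a library left out, and those lower by the adjusted p alone numbered 5 and ranged from 3 to 5; *FOXA2* was the call lost without ESC replicate 2. These list alternatives, and the bounds from NEC replicate 2 alone, were chosen after seeing the data. Merged PIRs of the 10 baits fell from 72 to 20 (ESCs) and from 132 to 44 (NECs) when the minimum score was 15. NEC-only, ESC-only and retained pairs then numbered 4, 0 and 1, and with PIRs within 10 kb taken as shared NEC-only pairs numbered 28 and retained pairs 33. By construction, a higher minimum score can only lower the merged and retained numbers, and a wider match can only raise the retained number. NEC-only and ESC-only numbers can move either way under both. Leaving out baits among the PIRs gave 53 and 108. Depth limits *SHH* and *HHIP*, with 43 counts or fewer per library.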
